A study of Mus musculus and Acomys cahirinus with 84 samples.

Results

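The genes described here are 10 members of the IL6 and IL1 families of cytokines and their receptors: Il6, Il11 and Lif, the receptor genes Il6ra and Il6st, the ligand genes Il1a, Il1b and Il33, the antagonist gene Il1rn and the receptor gene Il1rl1. They were chosen by symbol, with earlier results of these data known. All 10 occurred once among the 56980 genes of the mouse count table and once among the 19818 genes of the *A. cahirinus* table. The study irradiated primary skin fibroblasts, which are cells grown directly from skin and not an established line, from 3 populations: the African spiny mouse *A. cahirinus*, wild mice and mice with the label C56BL6. In each population cells received 0, 10 or 20 Gy of gamma irradiation and were collected at 24 h or at 12 d, and at 12 d there was one further group of untreated cells labelled as passaged. This gave 84 RNA-seq libraries in 21 groups of 4, with 4 animal codes per population in the library names and no transgene or mutation named for any group. Batch followed time in the labels, with 1 batch for 24 h and another for 12 d. The effects of the 2 cannot be told apart, and the times were not tested against each other. The age and sex of the animals are not given in the sources used here. In the unmatched tests described below, the p-values measure the spread between the 4 libraries of a group, which are 4 animals by their codes. In the matched tests they measure the spread of the differences within those animals. In wild mice the counts leave doubt about code number 1, described with the libraries below.

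Cytokines of the IL6 family bind a receptor chain of their own and then signal through the shared chain gp130, which is encoded by Il6st. Gp130 activates JAK kinases and the transcription factor STAT3, whose target Socs3 shuts the signal off again. Il6ra encodes the chain that binds IL6, while LIF binds gp130 together with Lifr and IL11 binds Il11ra1. In the IL1 family, IL1 alpha and IL1 beta act through Il1r1 and its partner Il1rap, and the product of Il1rn occupies Il1r1 without signalling. IL33 is a nuclear protein released from damaged cells that acts on ST2, the product of Il1rl1. Il1rl1 also gives rise to a soluble form that binds IL33 as a decoy, and counts per gene do not separate the forms. IL6, IL11 and LIF are known products of stressed and senescent fibroblasts, and IL1 alpha is known to act ahead of them in that programme.

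The bases just before the transcription start are shown for Il6, Lif and Il6st because these genes moved in opposite directions at 12 d in C56BL6 mice, 2 up and 1 down, and each has 1 start in the RefSeq promoter table. The RefSeq windows were made on GRCm38.p6 and were located in GRCm39 by exact match. Each line gives the 250 bases before the start, 5′ to 3′ on the strand of the gene. They lie at chr5:30217862-30218111 for Il6, chr11:4207318-4207567 for Lif and chr13:112600354-112600603 for Il6st, all on the plus strand of GRCm39. Capitals mark matches to the motifs searched and lower case marks all other bases.
Il6: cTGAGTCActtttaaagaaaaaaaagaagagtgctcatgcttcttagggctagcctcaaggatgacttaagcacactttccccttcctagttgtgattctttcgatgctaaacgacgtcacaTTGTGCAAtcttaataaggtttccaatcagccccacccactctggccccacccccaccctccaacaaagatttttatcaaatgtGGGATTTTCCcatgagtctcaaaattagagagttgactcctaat
Lif: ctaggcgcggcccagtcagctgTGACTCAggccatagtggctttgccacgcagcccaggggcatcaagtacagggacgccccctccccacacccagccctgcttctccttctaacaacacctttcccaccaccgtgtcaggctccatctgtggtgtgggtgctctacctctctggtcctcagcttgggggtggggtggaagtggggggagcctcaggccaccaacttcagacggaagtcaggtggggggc
Il6st: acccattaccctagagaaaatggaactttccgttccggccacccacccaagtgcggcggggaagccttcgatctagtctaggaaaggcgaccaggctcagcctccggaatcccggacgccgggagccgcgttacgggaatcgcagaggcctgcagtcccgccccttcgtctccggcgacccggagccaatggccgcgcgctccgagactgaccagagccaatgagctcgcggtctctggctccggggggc

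The motifs were searched on both strands, and no match overlapped another. The Il6 window held an NF-kB match, GGGATTTTCC, at 44 to 35 bases before the start, an AP-1 match, TGAGTCA, at 249 to 243 bases and a C/EBP match, TTGTGCAA, at 128 to 121 bases. The Lif window held 1 AP-1 match, TGACTCA, at 228 to 222 bases before the start. The Il6st window held no match to any of the 6 motifs. Il1rn, which fell in C56BL6 mice, has 3 starts. An AP-1 match, TGAGTCA, lay 141 to 135 bases before 1 of them and an NF-kB match, GGGTTTTTCC, 51 to 42 bases before another. Il11, which rose, has 2 starts, with an AP-1 match 98 to 92 bases before 1 of them. No AP-1 or NF-kB match lay before the starts of Il33, which fell, or Il1rl1, which rose. A link between matches and direction was not tested. Among 32851 windows of the same length, 4.65% held the NF-kB motif (GGG, 3 bases of any kind, then TTCC), 6.75% the AP-1 motif (TGANTCA) and 9.56% the C/EBP motif (TTGCNNAA). The shares were 1.55% for CRE (TGACGTCA) and 7.02% for STAT (TTCNNNGAA). The core of the TATA box, TATAAA, was found in 12.4%. A match is a string of letters and not evidence of binding.

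In GRCm39 the other genes lie on chromosome 7 from 4775372 to 4785858 for Il11, chromosome 2 from 129141530 to 129151892 for Il1a and from 129206490 to 129213059 for Il1b, and chromosome 2 from 24226865 to 24241506 for Il1rn. Il33 lies on chromosome 19 from 29902514 to 29938118, Il1rl1 on chromosome 1 from 40468730 to 40504575 and Il6ra on chromosome 3 from 89771366 to 89820503. The gene bodies of the genes printed above run from 30218112 to 30224979 on chromosome 5 for Il6, from 4207557 to 4222514 on chromosome 11 for Lif and from 112600604 to 112646620 on chromosome 13 for Il6st.

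Libraries held 17.42 to 52.86 M counts (M for mega), so that 3 counts corresponded to 0.05676 to 0.1722 counts per M (CPM). Defining fibroblast markers were abundant in all of them, with the 9 listed genes summing to 11072 to 69390 CPM per library. Some libraries stood apart. In C56BL6 mice, the 7 libraries of replicate number 1 held 67.2 to 409 CPM of the keratinocyte gene Krt5 and 145 to 415 CPM of Krt14, against at most 1.34 and 0.0753 CPM in the other 21 libraries. In wild mice, 32 genes were on in all 12 d libraries of number 1 (at least 1 CPM) and off in all its 24 h libraries (at most 0.05 CPM) or the reverse, against 0 such genes for the other numbers and 0 between number 1 at 12 d and number 4. Other pairs of numbers in wild mice at 12 d differed in 18 to 52 such genes. Number 1 may therefore not mark the same animal at both times, and at 12 d numbers 1 and 4 may share one, in which case the wild groups at 12 d hold 3 animals and their p-values with 4 are too small. C56BL6 numbers 3 and 4 also had 0 such genes between them at each time, as had all pairs of *A. cahirinus* numbers at 12 d. Such a 0 therefore does not by itself mark a shared animal, and the counts do not settle this. The libraries of number 1 are called here the libraries labelled wild replicate 1, and the wild calls that end without them are given as such. The mast cell markers, which matter because mast cells are rich in Il1rl1, summed to at most 0.651 CPM. Ptprc, the pan-leukocyte gene, reached at most 1.11 CPM and the macrophage gene Adgre1 0.198 CPM. Csf1r and Lyz2, also listed as leukocyte genes, were higher, at 17.8 ± 10.6 and 8.43 ± 3.66 CPM in untreated wild cells at 12 d. In bulk libraries, fewer cells of a type and less RNA per cell cannot be told apart.

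Levels can be compared between genes only per length, as transcripts per M (TPM) from the deposited exon lengths. In untreated C56BL6 cells at 12 d the Il6st level was 900 ± 527 TPM (SD, n = 4) and did not overlap that of any other of the 10 genes. Il1rl1 (64.2 ± 56.8 TPM), Il6 (41.6 ± 28 TPM), Il33 (28.9 ± 12.8 TPM), Il1rn (24.1 ± 7.61 TPM) and Il6ra (13.4 ± 5.11 TPM) followed, with each overlapping the next. Lif and Il11 came last among the well-measured genes, at 5.89 ± 4.53 and 3.96 ± 1.64 TPM. Wild mice had the same leading gene, Il6st at 739 ± 181 TPM, followed by Il6 at 23.4 ± 12.8 TPM, and the 7 genes behind Il6st overlapped their neighbours. In *A. cahirinus* Il6st was also first but at 63.7 ± 19.8 TPM, followed by Lif at 17.9 ± 4.01 TPM, while Il1rl1 stood at 0.0274 ± 0.0271 TPM and Il1rn and Il1b at 0. Levels across the species rest on different gene models and assemblies and were not tested.

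**Figure D1:**
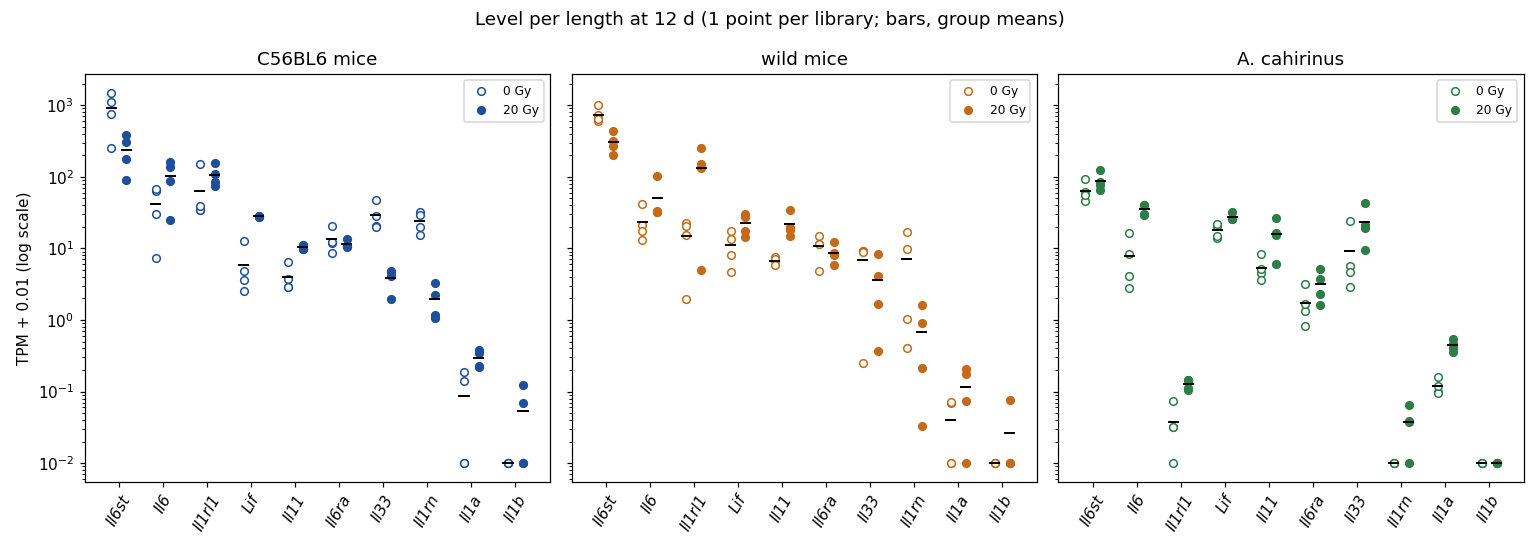
TPM of the 10 genes (log axis, with a small constant added) in each library at 12 d, for 0 Gy (open) and 20 Gy (filled) in 3 panels, one per population, with bars at the group means. Il6st leads at 0 Gy in each panel, at 900, 739 and 63.7 TPM, and Il1b lies at or next to 0 in all 3.

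Each comparison was run with groups compared as 4 against 4 libraries (unmatched) and again with the replicate number, which carries 1 animal code, as a block (matched). In wild mice the block pairs libraries within a time only, where same-numbered libraries deviated together. Both used edgeR's quasi-likelihood test over all genes with Benjamini-Hochberg adjustment, and a change was called at an adjusted p under 0.05. Changes are log2 fold changes of normalised counts.

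Il6, which encodes the family's namesake, was higher after 20 Gy than at 0 Gy at 12 d in every animal of all 3 populations. C56BL6 replicates 1 to 4 held 4.92, 20.3, 41.1 and 43.3 CPM untreated and 16.8, 56.2, 105 and 87.5 CPM at 20 Gy. The groups overlapped, because number 1 was lowest in both, and the change was 1.17 ± 0.71 (SE, adjusted p = 0.26) unmatched but 1.26 ± 0.12 (adjusted p = 0.00049) matched. Without replicate 1 the unmatched change also passed (adjusted p = 0.031).

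Wild replicates 1 to 4 held 14.6, 8, 29.1 and 11.6 CPM of Il6 untreated and 22.1, 20.7, 67.3 and 22.4 CPM at 20 Gy. Number 3 was highest in both groups, which overlapped, and Il6 rose by 0.93 ± 0.14 matched (adjusted p = 0.0098; unmatched 0.43). The matched adjusted p was 0.031 without the libraries labelled replicate 1 and 0.053 without replicate 4. In *A. cahirinus* the values were 3.81, 7.27, 1.94 and 1.27 CPM untreated and 18.1, 17.9, 12.6 and 13 CPM at 20 Gy. These groups did not overlap, and Il6 rose by 2.11 ± 0.50 unmatched (adjusted p = 0.014) and 2.32 ± 0.29 matched (adjusted p = 0.00097), about 4.99-fold. The unmatched call was lost without replicate 1 (adjusted p = 0.10) or 3 (adjusted p = 0.082).

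Il11 encodes a gp130 cytokine that fibroblasts make in fibrosis. In C56BL6 cells it went from 3.71, 2.12, 1.64 and 1.62 CPM untreated to 6.5, 5.55, 6.3 and 5.34 CPM at 20 Gy. The groups did not overlap, and the rise was 1.26 ± 0.29 unmatched (adjusted p = 0.015) and 1.33 ± 0.22 matched (adjusted p = 0.0037). Wild cells held 4.36, 3.51, 4.17 and 3.35 CPM of Il11 untreated and 11.6, 9.78, 8.49 and 19.8 CPM at 20 Gy. These groups did not overlap either, although only the matched rise of 1.51 ± 0.25 passed (adjusted p = 0.013; unmatched 0.073), and without the libraries labelled replicate 1 it did not (adjusted p = 0.067). In *A. cahirinus* 8.38, 4.56, 5.32 and 3.59 CPM stood against 16.2, 5.98, 15 and 25.8 CPM. Number 2 at 20 Gy lay within the untreated range, and the rise was 1.52 ± 0.42 unmatched (adjusted p = 0.025) and 1.42 ± 0.35 matched (adjusted p = 0.014). The matched call was lost without replicate 3 (adjusted p = 0.062), and the unmatched one without replicate 1, 3 or 4 (adjusted p = 0.065, 0.12 and 0.13).

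Lif, which encodes a gp130 cytokine known for keeping mouse stem cells undifferentiated, rose in C56BL6 mice and *A. cahirinus*. C56BL6 replicates held 15.3, 5.84, 4.33 and 2.92 CPM untreated at 12 d and 33.1, 32.8, 33.4 and 31.2 CPM at 20 Gy. The irradiated libraries lay within a narrow band that none of the untreated ones reached, and the rise was 2.08 ± 0.47 unmatched (adjusted p = 0.015) and 2.33 ± 0.37 matched (adjusted p = 0.0031), about 5.01-fold. Wild replicates held 16.7, 8.74, 5.86 and 21.4 CPM untreated and 18.1, 19.8, 32.3 and 35.3 CPM at 20 Gy. All 4 were higher after irradiation, but the groups overlapped and the change did not pass (matched 0.98 ± 0.37, adjusted p = 0.12; unmatched 0.91 ± 0.41, adjusted p = 0.38). In *A. cahirinus* 43.6, 45.4, 30.2 and 31.3 CPM rose to 52, 54.4, 50.7 and 64.1 CPM, with no overlap, a change of 0.55 ± 0.16 (adjusted p = 0.031) unmatched and 0.57 ± 0.13 (adjusted p = 0.01) matched. Its unmatched call was lost without replicate 1, 3 or 4 (adjusted p = 0.10, 0.11 and 0.16).

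The shared receptor chain and the IL6-binding chain did not follow the ligands in mice. Il6st in C56BL6 cells held 775, 2327, 3313 and 4442 CPM untreated and 277, 530, 917 and 1115 CPM at 20 Gy. Number 1 was again lowest in both groups, so that they overlapped, while every animal was lower after irradiation. The fall was 2.05 ± 0.59 on the log2 scale unmatched (adjusted p = 0.036) and 1.98 ± 0.12 matched (adjusted p = 0.00017), or 3.96-fold lower. In C56BL6 mice the unmatched calls of Il11, Lif and Il6st were lost without replicate 2 (adjusted p = 0.09, 0.10 and 0.15), replicate 3 (0.11, 0.10 and 0.14) or replicate 4 (0.074, 0.059 and 0.10), and the matched ones remained in each case.

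Wild libraries held 3124, 1685, 2275 and 1955 CPM of Il6st untreated and 993, 1267, 597 and 809 CPM at 20 Gy. The groups did not overlap, and the matched fall of 1.43 ± 0.22 passed (adjusted p = 0.011; unmatched 0.089). Without the libraries labelled replicate 1 or without replicate 4 it did not pass (adjusted p = 0.074 and 0.064). In *A. cahirinus* Il6st moved the other way, from 137, 203, 107 and 123 CPM to 167, 272, 183 and 140 CPM. The groups overlapped, and the rise of 0.42 ± 0.11 passed only matched (adjusted p = 0.016; unmatched 0.26). It was lost without replicate 1 or 3 (adjusted p = 0.053 and 0.056).

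Il6ra changed least among the receptor genes of C56BL6 mice, with 50.1, 20.8, 27.7 and 28.6 CPM untreated and 25.4, 24.4, 25.3 and 30.9 CPM at 20 Gy. Neither this difference (matched -0.31 ± 0.20, adjusted p = 0.25) nor the one in wild cells (matched -0.35 ± 0.16, adjusted p = 0.18) passed, and both pairs of groups overlapped. *A. cahirinus* held 1.75, 4.09, 2.22 and 1.07 CPM untreated and 2.97, 6.61, 4.62 and 2.04 CPM at 20 Gy. Each animal was higher within overlapping groups, a matched rise of 0.85 ± 0.15 (adjusted p = 0.0036; unmatched 0.22).

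**Figure D2:**
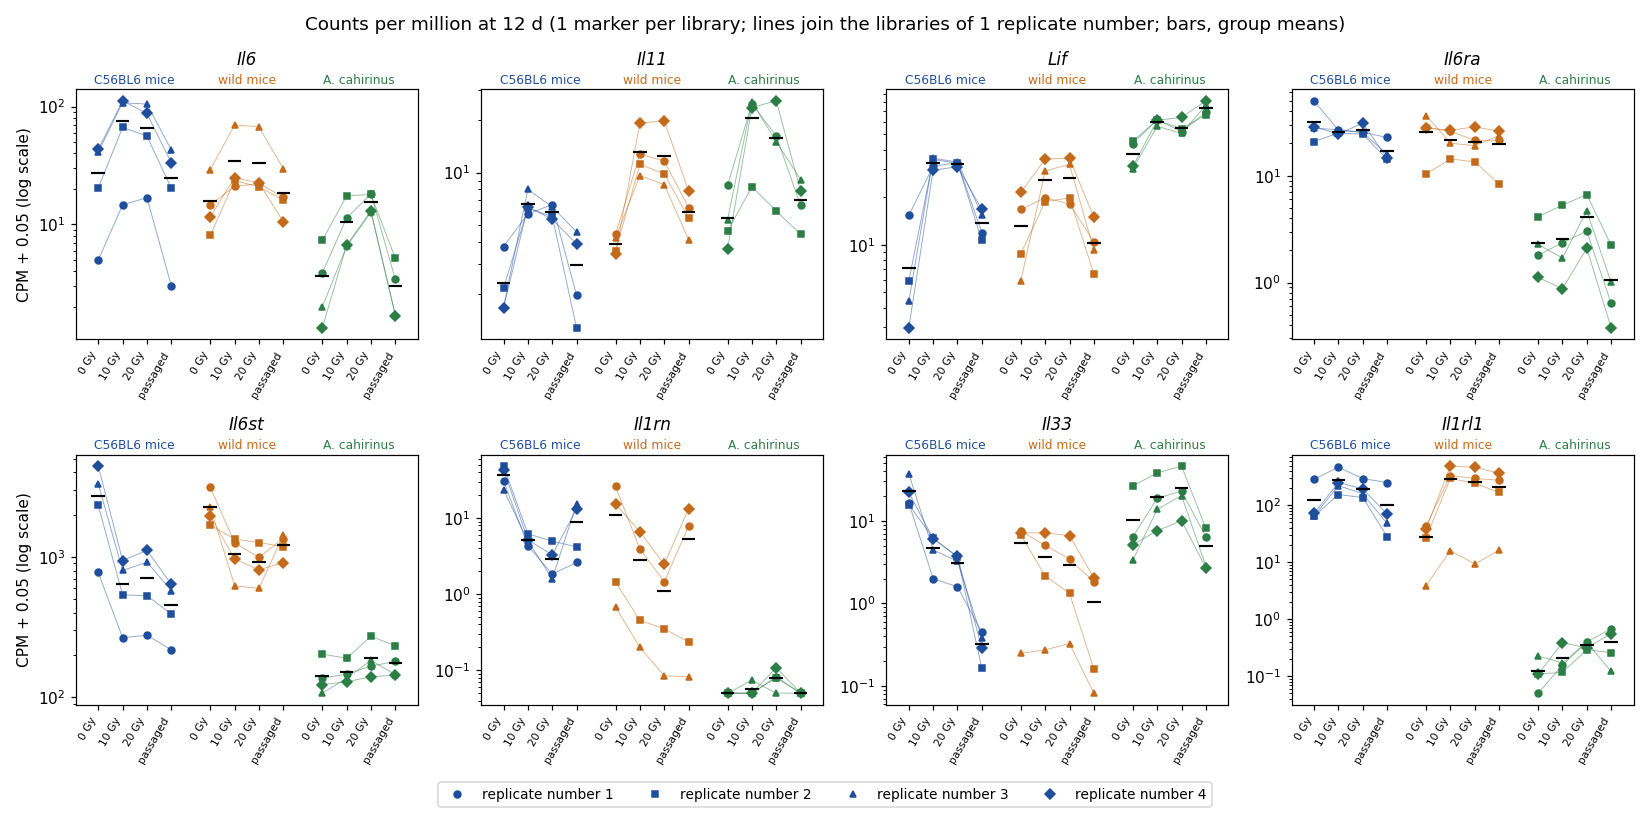
CPM of 8 genes at 12 d (log axis, with a small constant added) by treatment and population, with 1 marker per library, lines joining the libraries of 1 replicate number and bars at the group means. Il6st falls from a mean of 2714 to 710 CPM in C56BL6 mice and from 2260 to 917 CPM in wild mice between 0 and 20 Gy, against 142 and 191 CPM in *A. cahirinus*, where Il6 goes from 3.57 to 15.4 CPM.

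In the IL1 family the largest changes belonged to Il1rn, the receptor antagonist, and Il33. Il1rn held 30.9, 48.3, 23.5 and 43.4 CPM in untreated C56BL6 cells and 1.79, 4.93, 1.55 and 3.23 CPM at 20 Gy. The groups lay far apart and the fall was 3.78 ± 0.42 unmatched (adjusted p = 0.0014) and 3.85 ± 0.15 matched (adjusted p = 6.2e-05), or 14.4-fold lower. Wild libraries held 26, 1.4, 0.629 and 15.2 CPM untreated and 1.41, 0.302, 0.0346 and 2.42 CPM at 20 Gy. The untreated animals alone spanned more than the change, so the groups overlapped, while each animal was lower and the matched fall was 3.33 ± 0.34 (adjusted p = 0.004; unmatched 0.32; matched without the libraries labelled replicate 1, 0.028). In *A. cahirinus* no library of any group held more than 2 counts of Il1rn, so no change can be given there.

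Il33, the alarmin gene, moved in opposite directions in C56BL6 mice and *A. cahirinus*. C56BL6 cells held 16.4, 15.7, 37.1 and 22 CPM untreated and 1.54, 3.6, 3.2 and 3.66 CPM at 20 Gy. The groups did not overlap, and Il33 fell by 3.05 ± 0.38 unmatched (adjusted p = 0.002) and 3.01 ± 0.26 matched (adjusted p = 0.00039). *A. cahirinus* held 6.35, 26.4, 3.28 and 5.1 CPM untreated and 22.8, 46, 20.2 and 9.98 CPM at 20 Gy. Number 2 was highest throughout and made the groups overlap, and the matched rise of 1.51 ± 0.28 passed (adjusted p = 0.0046; unmatched 0.21, and 0.0035 without replicate 2). Wild cells held 7.48, 6.74, 0.199 and 7.14 CPM untreated and 3.4, 1.28, 0.277 and 6.59 CPM at 20 Gy. Of these, 3 animals were lower and number 3, near 0 in both groups, was not, and the difference did not pass (matched -1.13 ± 0.47, adjusted p = 0.15).

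Il1rl1, the gene of the IL33 receptor, was higher in every mouse animal after 20 Gy at 12 d. Wild cells held 43.3, 27.1, 3.84 and 38.9 CPM untreated and 297, 243, 9.28 and 468 CPM at 20 Gy. Number 3 was low in both groups and the groups overlapped through it. The matched rise was 2.66 ± 0.31 (adjusted p = 0.0056; unmatched 0.28), or 6.32-fold, with an adjusted p of 0.042 without the libraries labelled replicate 1. Without replicate 3 the unmatched rise passed as well (adjusted p = 0.033). C56BL6 cells held 289, 64.2, 65 and 72.2 CPM untreated and 295, 137, 160 and 195 CPM at 20 Gy. Number 1, the animal whose libraries carried keratinocyte genes, was highest in both groups and differed little between them. The matched rise was 0.85 ± 0.23 (adjusted p = 0.024; unmatched 0.48), and it was lost without replicate 2, 3 or 4 (adjusted p = 0.10 each). Without replicate 1 it passed matched (adjusted p = 4e-05) and unmatched (adjusted p = 0.00092). In *A. cahirinus* Il1rl1 reached at most 0.347 CPM at 20 Gy and 0.176 CPM at 0 Gy and did not pass the filter on low counts.

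Il1a, the ligand placed ahead of IL6 in the senescence programme, never exceeded 13 counts in a library. In *A. cahirinus* at 12 d it had 2, 4, 2 and 3 counts untreated and 13, 10, 12 and 9 counts at 20 Gy. The 2 groups did not overlap, but the gene did not pass the filter in this comparison and was not tested. In C56BL6 mice the counts were 0, 2, 0 and 3 against 6, 4, 4 and 7, also without overlap and untested, and in wild mice no library of either group exceeded 3 counts. Il1b had at most 5 counts in any of the 84 libraries, and no change can be given.

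Counted over the family, 8 of the 10 genes could be tested at 12 d in C56BL6 mice. Of these 2 were higher and 3 lower at 20 Gy unmatched, where 26.5% of all genes tested were called, and 4 were higher and 3 lower matched, where 47.5% were called. The median change of the 8 genes was 0.27 matched, against -0.00 over all genes. In wild mice 0 of 8 were called unmatched, with 0.0694% of all genes called. At an unadjusted p under 0.05 there were 4 of the 8 and 1984 of the 14399 genes tested, and by DESeq2 3 and 663. Matched, 3 were higher and 2 lower against a background of 15.4%. In *A. cahirinus* 6 could be tested, of which 3 were higher and none lower unmatched (background 31.8%) and all 6 were higher matched (background 49.2%). The median change of these 6 was 1.13 matched, against -0.01 over all genes. These 6 had at least 37 counts in every untreated library, and the numbers of called genes describe the measured genes only.

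Some markers of other cell types were also higher after irradiation. The 8 listed leukocyte genes summed to 12.1 to 34.7 CPM untreated and 29.8 to 40.8 CPM at 20 Gy in C56BL6 libraries at 12 d, and 12.4 to 43.1 and 25.2 to 45.2 CPM in wild ones. In *A. cahirinus*, whose count table holds 7 of the 8, they summed to 3.27 to 4.66 and 4.57 to 12.9 CPM. Cd68 was higher unmatched in C56BL6 mice (1.32 ± 0.37, adjusted p = 0.033) and *A. cahirinus* (1.18 ± 0.34, adjusted p = 0.029). Csf1r was higher in C56BL6 mice (1.28 ± 0.25, adjusted p = 0.0087), and Lyz2 did not pass in either mouse population. Among the 4 endothelial genes (Pecam1, Cdh5, Kdr and Tek), Pecam1 was higher in all 3 populations, by 3.44 ± 0.34 in C56BL6 mice (adjusted p = 0.0011), 3.42 ± 0.55 in *A. cahirinus* (adjusted p = 0.0026) and, matched, 3.67 ± 0.60 in wild mice (adjusted p = 0.013). Its mean level at 20 Gy was 1.19, 1.82 and 0.809 CPM in that order. Cdh5 rose in *A. cahirinus* from 0.377 ± 0.0636 to 1.1 ± 0.543 CPM (1.53 ± 0.39, adjusted p = 0.018) and Tek matched in wild mice (1.98 ± 0.41, adjusted p = 0.023). The endothelial genes summed to 6.12 to 18.7 CPM untreated and 8.13 to 33.5 CPM at 20 Gy in C56BL6 libraries, 0.232 to 14.4 and 0.935 to 13.3 CPM in wild ones, and 0.599 to 1.9 and 2.98 to 4.89 CPM in *A. cahirinus*. The part of these genes' cell types in the changes above, Il33 and Il1rl1 included, was not tested. Of the 9 fibroblast markers, 6 fell matched in C56BL6 mice (background 47.5%), among them Pdgfra and Col3a1, 3 fell in wild mice (background 15.4%), and in *A. cahirinus* 3 fell and 2 rose (background 49.2%).

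Whether the change at 20 Gy differed between populations was tested as an interaction. At 12 d, *A. cahirinus* and C56BL6 mice differed in Il33 by 4.32 ± 0.91 on the log2 scale (adjusted p = 0.0055), in Il6st by 2.49 ± 0.69 (adjusted p = 0.023) and in Lif by -1.53 ± 0.51 (adjusted p = 0.048). The first 2 were higher in *A. cahirinus*, and Lif rose more in C56BL6 mice. Matched, Il6 (1.03 ± 0.34, adjusted p = 0.035) and Il6ra (1.16 ± 0.27, adjusted p = 0.0084) also differed. The fitted Il1rn difference rests on 0 counts in untreated *A. cahirinus* and is not given. With Il1rn counted, 3 of 8 genes were higher and 1 lower unmatched against a background of 18.8% of genes, and 5 were higher and 1 lower matched against 38%. The unmatched difference in Lif was lost without replicate 2, 3 or 4 (adjusted p = 0.18, 0.23 and 0.12), that in Il6st likewise (adjusted p = 0.071, 0.15 and 0.083) and that in Il33 without replicate 3 (adjusted p = 0.063). The matched difference in Il6 was lost without replicate 1, 3 or 4 (adjusted p = 0.063, 0.15 and 0.17), as was that in Il6ra without 3 (adjusted p = 0.054), in Lif without 3 (adjusted p = 0.057) and in Il1rn without 4 (adjusted p = 0.052). Those in Il33 and Il6st passed without any 1 number.

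*A. cahirinus* and wild mice differed at 12 d in Il6st by 1.85 ± 0.40 (adjusted p = 0.027), the 1 gene of 8 called unmatched, with 3.31% of all genes called. That call was lost without the libraries numbered 1, 3 or 4 (adjusted p = 0.30, 0.13 and 0.16). Matched, 5 of 8 were higher in *A. cahirinus*, again counting Il1rn, with a background of 23.4%. They were Il6st (1.86 ± 0.26, adjusted p = 0.0011), Il6ra (1.21 ± 0.23, adjusted p = 0.0048), Il33 (2.69 ± 0.59, adjusted p = 0.0099) and Il6 (1.41 ± 0.35, adjusted p = 0.018). Without the libraries numbered 1, Il6 (adjusted p = 0.11), Il33 (0.091) and Il1rn (0.07) did not pass, while Il6st (0.02) and Il6ra (0.046) did. Il6 was lost as well without 3 or 4 (0.055 and 0.079), and Il1rn without 2, 3 or 4 (0.069, 0.074 and 0.11). Wild and C56BL6 mice differed in none of 8 genes at 12 d, unmatched or matched, with backgrounds of 0% and 0.101%. The widest of these differences, Il1rl1, was 1.82 ± 0.43 matched (adjusted p = 0.12). Unmatched, 0 of the 8 and 353 of 15914 genes had an unadjusted p under 0.05, and DESeq2 called 0 and 8. Untreated wild and C56BL6 cells were also compared, with no animal shared. At 12 d none of 8 genes passed in a background of 2.93%, and at 24 h none of 7 in a background of 5.7%. Before adjustment 3 of the 8 had a p under 0.05 at 12 d, with 2174 of 14238 genes. For the 7 at 24 h it was 2, with 3175 of 14317 genes. By DESeq2 0 and 1 were called, with 1080 and 1766 genes.

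**Figure D3:**
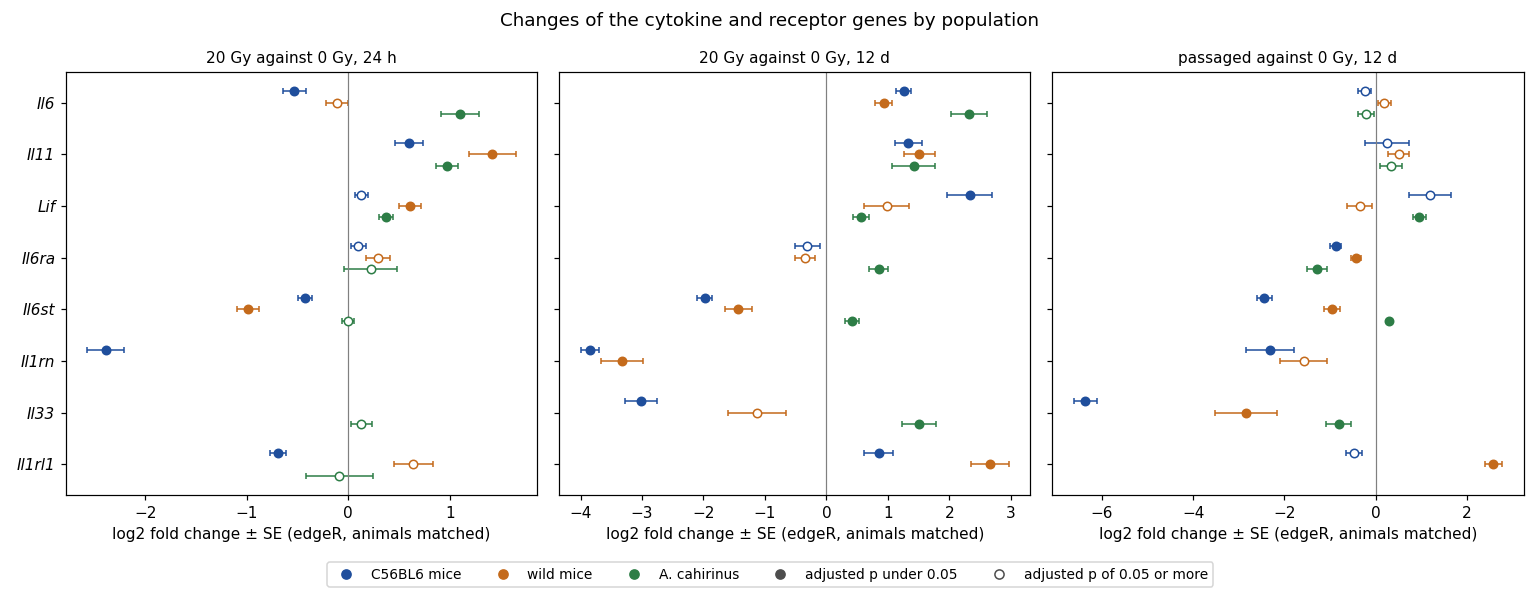
Log2 fold change with its SE, matched by animal, of 8 genes (rows) in 3 populations (colours), for 20 Gy against 0 Gy at 24 h and at 12 d and for passaged against 0 Gy at 12 d; filled points have an adjusted p under 0.05. At 12 d after 20 Gy Il6st lies at -1.98 and -1.43 in the mice and 0.42 in *A. cahirinus*, and Il33 at -3.01 in C56BL6 mice and 1.51 in *A. cahirinus*.

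At 10 Gy the picture at 12 d was close to that at 20 Gy, with the same untreated libraries in both. In C56BL6 mice 2 of 8 genes were higher and 3 lower unmatched (background 20.9%), and 4 were higher and 3 lower matched (background 38.8%). Il6 rose by 1.38 ± 0.09 (adjusted p = 5.9e-05), Lif by 2.32 ± 0.35 (adjusted p = 0.0018) and Il1rl1 by 1.26 ± 0.18 (adjusted p = 0.0015), and Il1rn fell by 2.92 ± 0.14 (adjusted p = 2e-05), all matched. In wild mice Il11 was the 1 gene called unmatched, at 1.61 ± 0.23 (adjusted p = 0.046; background 0.264%), a call lost without any 1 of the 4 (adjusted p = 0.54, 0.12, 0.06 and 0.37). Matched, 3 were higher and 2 lower against 12.7%, Il1rl1 leading at 2.92 ± 0.22 (adjusted p = 0.0017). Of these, Il6 was lost without replicate 4 (adjusted p = 0.054) and Il6st without the libraries labelled replicate 1 or without replicate 4 (adjusted p = 0.08 and 0.065). In *A. cahirinus* Il11 alone passed unmatched, at 1.90 ± 0.37 (adjusted p = 0.041; background 2.87%), and not without replicate 1, 3 or 4 (adjusted p = 0.30, 0.25 and 0.18). Il6, Il11, Lif and Il33 were higher matched against 27.5%, Il33 not without replicate 1 (adjusted p = 0.082).

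Between 20 and 10 Gy few of the genes were called in mice. In C56BL6 mice none of 8 genes was called unmatched (background 0%). Of these 1 had an unadjusted p under 0.05, with 301 of 15463 genes, and DESeq2 called 0 of the 8 and 0 of all genes. Matched, 1 was called (background 0.297%), Il1rl1, lower at 20 Gy by -0.41 ± 0.07 (adjusted p = 0.048). That call was lost without replicate 1 or 2 (adjusted p = 0.43 and 0.086). In wild mice none of 8 was called unmatched (background 0%). An unadjusted p under 0.05 was found for 0 of the 8 and 37 of 14770 genes, and DESeq2 called 0 and 1. Il1rn was lower by -1.34 ± 0.23 matched (adjusted p = 0.032, background 0.257%). This call was lost without the libraries labelled replicate 1 (adjusted p = 0.32) or without replicate 4 (adjusted p = 0.25). *A. cahirinus* had 0 of 6 called unmatched (background 0.457%). Here 0 of the 6 and 1917 of 13564 genes had an unadjusted p under 0.05, and DESeq2 called 0 and 706. Matched, 4 were higher at 20 than at 10 Gy, with 17.9% of all genes called. These were Il6 (0.66 ± 0.16, adjusted p = 0.023), Il33 (0.38 ± 0.09, adjusted p = 0.022), Il6ra (0.83 ± 0.23, adjusted p = 0.038) and Il6st (0.31 ± 0.09, adjusted p = 0.042). Each was lost without replicate 1 (adjusted p = 0.085, 0.09, 0.066 and 0.13), without replicate 3 (0.12, 0.11, 0.18 and 0.16) and without replicate 4 (0.11, 0.085, 0.14 and 0.08).

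At 24 h Il6 in C56BL6 cells held 4.93, 27.6, 64.6 and 49.8 CPM untreated and 5.03, 24.8, 34.1 and 32.4 CPM at 20 Gy, and in *A. cahirinus* 1.97, 3.98, 0.92 and 1.9 CPM against 4.78, 5.63, 3.36 and 3.65 CPM. In C56BL6 mice 3 animals were lower and number 1 was not, a matched fall of 0.53 ± 0.11 (adjusted p = 0.0056) that did not pass without replicate 3 (-0.34, adjusted p = 0.082). In *A. cahirinus* all 4 animals were higher within overlapping groups, a matched rise of 1.10 ± 0.19 (adjusted p = 0.0029). The 2 changes differed by 1.58 ± 0.24 matched (adjusted p = 0.00028), also without any 1 number. In wild mice Il6 differed by -0.11 ± 0.11 (adjusted p = 0.56).

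Il11 was higher in all 12 animals at 24 h. The matched rise was largest in wild mice, at 1.42 ± 0.23 (adjusted p = 0.0031), followed by *A. cahirinus* at 0.97 ± 0.11 (adjusted p = 0.00014) and C56BL6 mice at 0.60 ± 0.14 (adjusted p = 0.0076, and 0.11 without replicate 4). The order was not tested. Wild libraries led, going from 8.46, 7.01, 5.43 and 11.6 CPM to 17.6, 41.6, 8.82 and 30 CPM, with number 3 keeping the groups in overlap. Lif rose matched in wild mice (0.61 ± 0.11, adjusted p = 0.0054) and *A. cahirinus* (0.37 ± 0.07, adjusted p = 0.0033), and in C56BL6 mice its change was 0.13 ± 0.06 (adjusted p = 0.18).

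Il6st fell at 24 h in both mouse populations. Wild libraries went from 550, 1080, 824 and 927 CPM to 367, 420, 431 and 469 CPM without overlap, a matched fall of 0.99 ± 0.11 (adjusted p = 0.00048), and C56BL6 libraries by 0.43 ± 0.07 (adjusted p = 0.0009). The *A. cahirinus* change was 0.00 ± 0.06 (adjusted p = 0.99), and it differed matched from the change in wild mice (0.99 ± 0.13, adjusted p = 0.00055) and in C56BL6 mice (0.43 ± 0.10, adjusted p = 0.0091). The second difference was lost without replicate 3 or 4 (adjusted p = 0.063 and 0.11). Il1rn in C56BL6 cells was lower in every animal, at 1.04, 1.81, 9.4 and 9.37 CPM untreated and 0.211, 0.488, 2.23 and 1.26 CPM at 20 Gy, a matched fall of 2.39 ± 0.18 (adjusted p = 2.9e-06). Numbers 3 and 4 were higher than 1 and 2 in both groups, which overlapped. Il33 stood at 0.0611 to 0.395 CPM in untreated C56BL6 cells at 24 h. Il1rl1 fell in C56BL6 mice by 0.69 ± 0.08 matched (adjusted p = 5.8e-05).

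At 24 h none of the genes tested was called unmatched in any population. That was 0 of 7 in C56BL6 mice (background 0.0895%), 0 of 6 in wild mice (0%) and 0 of 7 in *A. cahirinus* (3.59%). An unadjusted p under 0.05 was found for 1, 2 and 3 of these genes in that order. Over all genes it was found for 1426 of 14526, 856 of 14473 and 2281 of 13146. DESeq2 called 0, 1 and 1 of these genes, with 268, 85 and 1106 over all genes. Matched, 1 was higher and 4 were lower in C56BL6 mice (background 17.6%), 2 were higher and 1 lower in wild mice (12.5%) and 3 were higher in *A. cahirinus* (24.1%).

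The 24 h libraries at 10 Gy shared the untreated controls with those at 20 Gy. Of 7 genes in C56BL6 mice, 0 of 7 and 1116 of 14280 genes over all had an unmatched, unadjusted p under 0.05, and DESeq2 called 0 and 149. With adjustment 0 of 7 were called unmatched (background 0.007%) and 6 matched (background 11.5%), 2 higher and 4 lower. Il11 (0.77 ± 0.15, adjusted p = 0.0083) and Lif (0.28 ± 0.06, adjusted p = 0.012) were higher. The lower genes were Il1rn (-1.78 ± 0.22, adjusted p = 0.00058), Il6st (-0.41 ± 0.08, adjusted p = 0.007), Il6 (-0.39 ± 0.10, adjusted p = 0.027) and Il1rl1 (-0.37 ± 0.05, adjusted p = 0.0013). Il1rn and Il1rl1 passed without any 1 replicate, while Il6 did not without replicate 2, 3 or 4 (adjusted p = 0.06, 0.27 and 0.11), Il11 without 3 or 4 (0.083 and 0.053), Lif without 2 or 3 (0.089 and 0.10) and Il6st without 3 (0.075).

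In *A. cahirinus* at 24 h and 10 Gy 0 of 7 were called unmatched (background 3.73%). Before adjustment 3 of the 7 and 2136 of 13083 genes had a p under 0.05, and DESeq2 called 1 and 1010. Matched, Il6 rose by 1.07 ± 0.16 (adjusted p = 0.00028), Il11 by 0.85 ± 0.09 (adjusted p = 1.6e-05) and Lif by 0.33 ± 0.06 (adjusted p = 0.0018), against a background of 27.6%, and all 3 passed without any 1 replicate. In wild mice 0 of 6 were called either way, as were 0% of all genes unmatched and 0% matched. Unmatched, 2 of the 6 and 603 of 14412 genes had an unadjusted p under 0.05, and DESeq2 called 1 and 92. Replicate 1 had a 10 Gy library with 195 CPM of Il6st against 416 to 452 CPM in the others. It was the shallowest of the 84 libraries, at 17.42 M counts. Without replicate 1, Il6st (adjusted p = 4.3e-05), Il11 (0.0016), Lif (0.00028), Il1rl1 (0.001) and Il6ra (0.034) passed matched in wild mice. The same fit called 3309 genes over all.

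In the differences between populations at 24 h none was called unmatched. *A. cahirinus* had 0 of 8 against C56BL6 mice (background 2.09%) and 0 of 7 against wild mice (0%), and the mice 0 of 8 (0%). An unadjusted p under 0.05 was found for 0, 1 and 0 of these genes in that order. Over all genes it was found for 1464 of 13594, 703 of 13604 and 253 of 15612. DESeq2 called 0, 0 and 0 of these genes, with 504, 88 and 0 over all genes. Matched, 2 of 8 differed in the first (background 16.8%), 3 of 7 in the second (7.25%) and 1 of 8 in the third (0.647%).

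**Figure D4:**
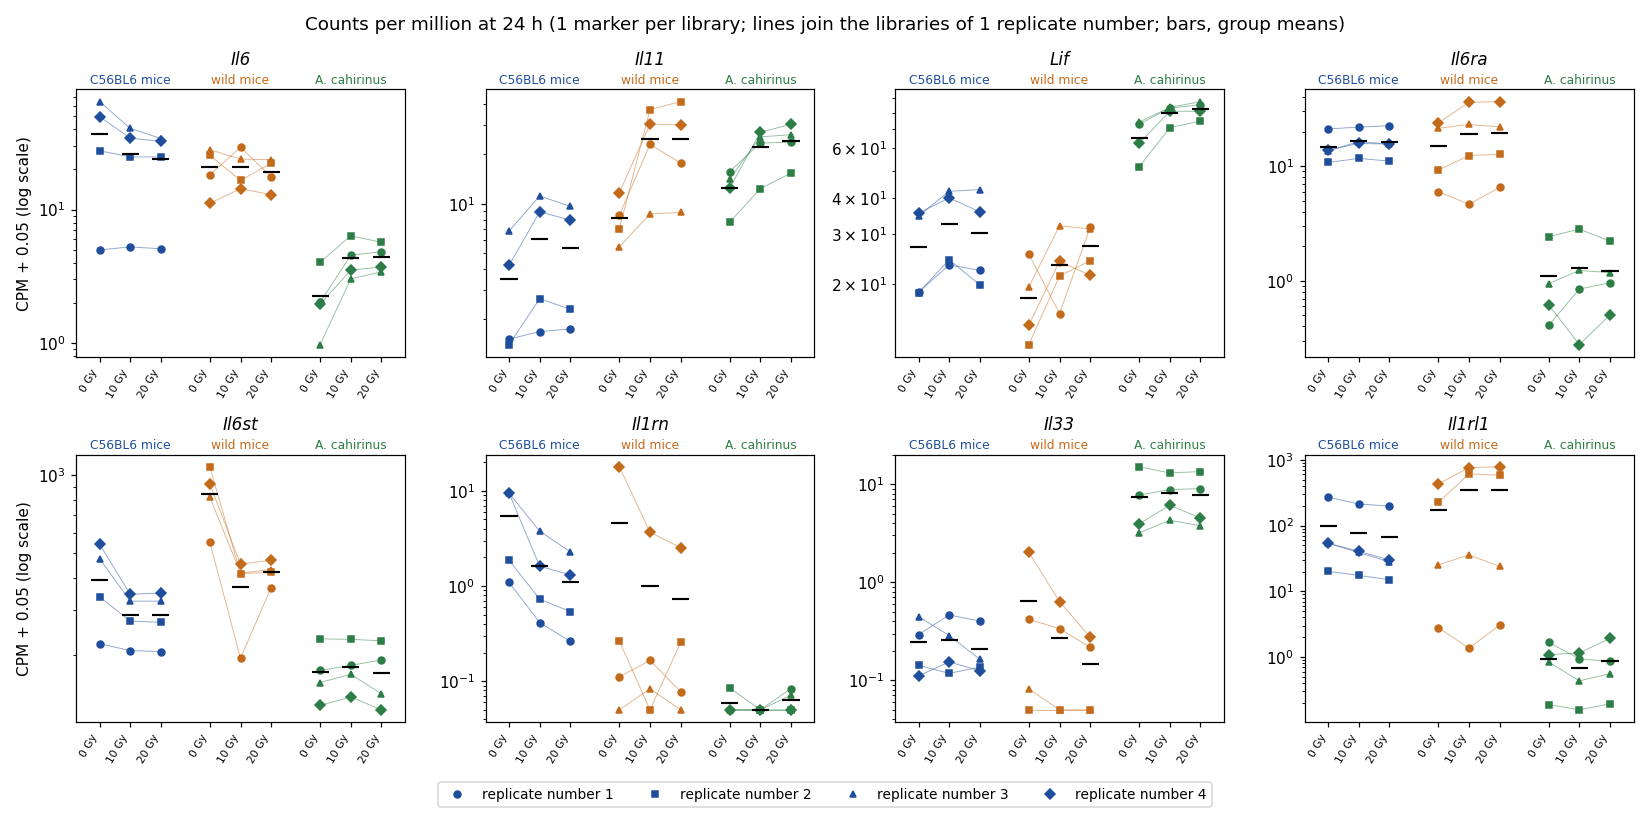
CPM of 8 genes at 24 h (log axis, with a small constant added) by dose and population, with 1 marker per library, lines joining the libraries of 1 replicate number and bars at the group means. Between 0 and 20 Gy the mean of Il11 goes from 12.5 to 23.8 CPM in *A. cahirinus*, from 8.13 to 24.5 CPM in wild mice and from 3.44 to 5.36 CPM in C56BL6 mice.

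Passaged untreated cells shared the falls of Il33 and Il6st in C56BL6 mice but not the rise of Il6. There Il33 held 0.396, 0.115, 0.332 and 0.236 CPM after passage, below every unpassaged and every irradiated library at 12 d. It fell by 6.41 ± 0.46 against unpassaged cells (adjusted p = 0.00016), Il6st by 2.58 ± 0.55 (adjusted p = 0.0059), Il1rn by 2.06 ± 0.56 (adjusted p = 0.017) and Il6ra by 0.93 ± 0.28 (adjusted p = 0.023), all unmatched. These were the 4 called of 8, unmatched (background 49.6%) and matched (60.1%). The Il1rn call was lost unmatched without replicate 2 (adjusted p = 0.091) or 4 (adjusted p = 0.054), and the Il6ra call without 3 (0.089) or 4 (0.092). Il6 differed by -0.15 ± 0.81 (adjusted p = 0.89) and Il11 by 0.32 ± 0.46 (adjusted p = 0.58). Mki67, a proliferation gene, averaged 193 CPM in passaged and 22 CPM in unpassaged C56BL6 cells, and its part in these changes was not tested.

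In wild mice passage went with a lower Il6st, by 0.96 ± 0.23 unmatched (adjusted p = 0.039), the 1 gene of 8 called with 10.7% of all genes called. Without the libraries numbered 1, 2 or 4 it did not pass (adjusted p = 0.21, 0.11 and 0.15). Matched, 1 was higher and 3 lower (background 31.9%), the higher one being Il1rl1 at 2.58 ± 0.19 (adjusted p = 0.0018), with 276, 169, 16.2 and 366 CPM after passage. The matched falls were each lost without some of the libraries: Il33 without those labelled replicate 1 or replicate 4 (adjusted p = 0.076 and 0.056), Il6st likewise (0.068 and 0.067) and Il6ra without 1, 2 or 3 (0.12, 0.06 and 0.072). In *A. cahirinus* Lif was the 1 gene of 6 called unmatched, at 0.94 ± 0.16 (adjusted p = 0.0047; background 25.8%). It held 69.1, 66.6, 76.5 and 81.7 CPM after passage, above every other *A. cahirinus* library at 12 d. Matched, Il6st rose by 0.30 ± 0.06 (adjusted p = 0.0046), Il6ra fell by 1.28 ± 0.22 (adjusted p = 0.0018) and Il33 by 0.81 ± 0.27 (adjusted p = 0.037), with 2 higher and 2 lower of 6 against 49.5%. The Il33 value was -0.40 (adjusted p = 0.14) without replicate 2 and did not pass without 3 (adjusted p = 0.052) or 4 (adjusted p = 0.088).

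Set against passaged cells, irradiated cells at 20 Gy had more Il6 in each population. The matched difference was 2.50 ± 0.21 in *A. cahirinus* (adjusted p = 0.00011), 1.46 ± 0.17 in C56BL6 mice (adjusted p = 0.00032) and 0.73 ± 0.16 in wild mice (adjusted p = 0.01, and 0.052 without replicate 4). Il33 was also higher than in passaged cells in all 3 populations. For C56BL6 mice the matched Il33 difference was 3.28 ± 0.42 (adjusted p = 0.0005). For wild mice it was 1.72 ± 0.39 (adjusted p = 0.011, and 0.057 without replicate 4). The *A. cahirinus* value was 2.29 ± 0.18 (adjusted p = 9.3e-05). Lif was higher in the mice, by 1.14 ± 0.13 (adjusted p = 0.00025) and 1.33 ± 0.17 (adjusted p = 0.0011), and lower in *A. cahirinus*, by -0.41 ± 0.09 (adjusted p = 0.0063). Unmatched, 3 genes were higher of 8 in C56BL6 mice (background 41.6%), 1 of 8 in wild mice (10.5%), and 4 were higher and 1 lower of 8 in *A. cahirinus* (42.5%). Matched, 7 were higher and 1 lower (56.1%), 4 were higher and 1 lower (38%), and 4 were higher and 1 lower (56%). Il6st was among the 7 in C56BL6 mice, although it was lower than in unpassaged cells. It held 277, 530, 917 and 1115 CPM at 20 Gy and 218, 392, 576 and 639 CPM after passage. In wild mice 993, 1267, 597 and 809 CPM of Il6st stood against 1353, 1182, 1436 and 912 CPM after passage. In C56BL6 mice the matched calls of Il11 were lost without replicate 1 or 2 (adjusted p = 0.057 and 0.067), of Il1rn without 3 or 4 (0.14 and 0.15) and of Il6ra without 3 (0.052).

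The rest of each pathway was described from lists of 13 other IL6-family genes, 14 other IL1-family genes and 5 lists of signalling, processing and RNA-decay genes, at 20 Gy against 0 Gy and 12 d. The share of all genes called matched, against which each list count is read, was 15.4% for wild mice, 47.5% for C56BL6 mice and 49.2% for *A. cahirinus*. Clcf1, a gp130 ligand gene, was higher in all 3 populations, by 1.10 ± 0.10 in C56BL6 mice (adjusted p = 0.00096), 0.69 ± 0.14 in *A. cahirinus* (adjusted p = 0.0071) and, matched, 0.89 ± 0.20 in wild mice (adjusted p = 0.028). In C56BL6 mice the private receptor genes Il11ra1 and Lifr fell by 1.62 ± 0.35 (adjusted p = 0.013) and 1.44 ± 0.41 (adjusted p = 0.033), and in wild mice by 0.74 ± 0.14 (adjusted p = 0.019) and 0.48 ± 0.10 (adjusted p = 0.021) matched. Ctf1, the cardiotrophin gene, fell in C56BL6 mice by 0.90 ± 0.24 (adjusted p = 0.028). Of the 9 tested there, 1 was higher and 5 lower matched in C56BL6 mice (median -0.54, all genes -0.00), and 1 was higher and 2 lower in wild mice (median -0.36). In *A. cahirinus* 4 of 8 were higher and 1 lower matched (median 0.27, all genes -0.01). Cntf, a gp130 ligand gene, rose there from 13.8 ± 4.82 to 40.7 ± 9.28 CPM (1.56 ± 0.26, adjusted p = 0.0032).

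Among other IL1-family genes, Il1r1, the signalling receptor that Il1rn antagonises, fell in C56BL6 mice from 379 ± 194 to 107 ± 64.7 CPM (-1.94 ± 0.61, adjusted p = 0.049; matched 0.00016) and matched in wild mice by 0.97 ± 0.15 (adjusted p = 0.011). Il18rap, an IL18 receptor chain, rose matched in wild mice by 3.08 ± 0.63 (adjusted p = 0.023), and Il1rl2, the IL36 receptor gene, fell matched by 0.51 ± 0.10 (adjusted p = 0.023). In *A. cahirinus* the co-receptor gene Il1rap fell by 0.99 ± 0.13 (adjusted p = 0.00098) and the IL18 decoy gene Il18bp rose by 1.36 ± 0.23 (adjusted p = 0.0033). Matched, 1 of 8 was higher and 4 lower in C56BL6 mice, 1 of 7 higher and 2 lower in wild mice, and 1 of 6 higher and 2 lower in *A. cahirinus*, with medians of -0.84, 0.06 and -0.04. In *A. cahirinus* 3 of 6 called is about the share of all genes (49.2%).

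Of 13 JAK-STAT genes, Ptpn11, a phosphatase that gp130 recruits, was higher in all 3 populations, by 0.42 ± 0.08 (adjusted p = 0.0095), 0.45 ± 0.10 (matched, adjusted p = 0.031) and 0.56 ± 0.07 (adjusted p = 0.0012). The feedback inhibitor gene Socs3 fell in *A. cahirinus* from 47.8 ± 11.2 to 13.8 ± 2.06 CPM (-1.79 ± 0.19, adjusted p = 0.00053), and Socs1 fell in C56BL6 mice by 1.49 ± 0.31 (adjusted p = 0.012). Cish, another feedback inhibitor gene, fell in *A. cahirinus* by 0.83 ± 0.16 (adjusted p = 0.0062), and Stat5b by 0.37 ± 0.07 (adjusted p = 0.0066). Matched, 2 were higher and 7 lower in C56BL6 mice (median -0.24), 1 higher and 0 lower in wild mice (median -0.12) and 1 higher and 6 lower in *A. cahirinus* (median -0.23), where 7 of 13 is near the background of 49.2%. Of the STAT3 targets, Bcl3 fell in each, by 1.12 ± 0.24 (matched, adjusted p = 0.01), 0.71 ± 0.11 (matched, adjusted p = 0.011) and 2.23 ± 0.30 (adjusted p = 0.0013). Matched, 0 of 10 targets were higher and 3 lower in C56BL6 mice, 0 of 10 and 1 in wild mice, and 3 of 9 and 4 in *A. cahirinus*, with medians of -0.18, -0.25 and -0.23. Lrg1 and Saa3 fell matched in C56BL6 mice by 2.08 ± 0.24 (adjusted p = 0.0011) and 0.76 ± 0.17 (adjusted p = 0.013), and Pim1 fell in *A. cahirinus* by 0.68 ± 0.16 (adjusted p = 0.014). The genes that rose in *A. cahirinus* were Junb (0.52 ± 0.14, adjusted p = 0.024) and, matched, Saa3 and Timp1.

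Of 19 genes downstream of the IL1 receptor, 9 were higher and 3 lower matched in C56BL6 mice (median 0.13), 3 and 2 in wild mice (0.03) and 4 and 5 in *A. cahirinus* (-0.03), against backgrounds of 47.5%, 15.4% and 49.2%. The 9 of 19 in *A. cahirinus* are near the share of all genes. The adaptor gene Myd88 fell by 0.59 ± 0.16 in C56BL6 mice (adjusted p = 0.029) and matched by 0.52 ± 0.09 in wild mice (adjusted p = 0.015), while Map3k7, the kinase TAK1, rose by 0.44 ± 0.06 (adjusted p = 0.0025) and 0.51 ± 0.09 (matched, adjusted p = 0.016). Ikbkg, the regulatory subunit of the IkB kinase, rose by 0.68 ± 0.08 in C56BL6 mice (adjusted p = 0.0017) and matched by 0.46 ± 0.10 in wild mice (adjusted p = 0.023), and the kinase gene Irak4 fell by 0.45 ± 0.08 (adjusted p = 0.0058) and, matched, 0.35 ± 0.09 (adjusted p = 0.043). In *A. cahirinus* Irak3 fell by 0.97 ± 0.31 (adjusted p = 0.043), Nfkb1 by 0.79 ± 0.09 (adjusted p = 0.00067), Tnfaip3 by 0.54 ± 0.12 (adjusted p = 0.013) and Irak1 by 0.37 ± 0.11 (adjusted p = 0.032). Some genes passed matched only, and are named after their values were seen. Nfkbiz, which encodes a nuclear IkB protein, rose in *A. cahirinus* from 7.81 ± 6.39 to 23 ± 17.3 CPM (1.56 ± 0.18, adjusted p = 0.00061; unmatched 0.11) and Traf6 by 0.50 ± 0.11 (adjusted p = 0.0081). Tnfaip3, the NF-kB inhibitor A20, rose in C56BL6 mice by 1.23 ± 0.12 (adjusted p = 0.00058; unmatched 0.16).

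Among genes that mature IL1 cytokines or shed receptors, *A. cahirinus* had 5 of 11 higher and 2 lower matched (background 49.2%). Nlrp3, the inflammasome sensor, rose by 2.04 ± 0.45 (adjusted p = 0.01) at a low level of 2.4 ± 1.3 CPM, and Gsdmd, the pore protein, fell by 1.17 ± 0.18 (adjusted p = 0.0026). Capn2, a calpain gene, and the sheddase gene Adam17 rose there by 0.48 ± 0.11 (adjusted p = 0.013) and 0.46 ± 0.12 (adjusted p = 0.019). In C56BL6 mice Capn2 rose matched by 0.55 ± 0.09 (adjusted p = 0.0043) and Adam10 and Adam17 fell matched by 0.35 ± 0.09 (adjusted p = 0.019) and 0.34 ± 0.05 (adjusted p = 0.0032). C56BL6 mice had 1 of 10 higher and 2 lower (background 47.5%), and wild mice 0 of 10 either way (background 15.4%). Zfp36l1, which destabilises cytokine mRNAs, fell from 236 ± 37.8 to 128 ± 12.8 CPM in C56BL6 mice (adjusted p = 0.0021), by 1.03 ± 0.14 in *A. cahirinus* (adjusted p = 0.0014) and, matched, by 0.79 ± 0.19 in wild mice (adjusted p = 0.036). Of its list of 8, 1 was higher and 1 lower matched in C56BL6 mice, 0 and 1 in wild mice, and 2 and 4 in *A. cahirinus*, against the same backgrounds. In *A. cahirinus* Khsrp fell by 0.47 ± 0.15 (adjusted p = 0.044) and Elavl1 by 0.31 ± 0.09 (adjusted p = 0.034), and Rc3h1 rose by 0.21 ± 0.07 (adjusted p = 0.049).

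The genes whose pattern was most like each of 7 of the genes over the 16 libraries of a population at 12 d were ranked by the mean of Pearson's r over the 3 populations, among 11779 genes. These are descriptions without a test, and the libraries share animals and treatments. For Il6 they were Stx12 (mean r 0.879), Cp (0.872) and Camk2d (0.869), for Il11 Tfcp2l1 (0.834), Slc39a6 (0.833) and Atp6v0a2 (0.82), and for Lif Atf3 (0.823), Slc35b1 (0.752) and Dgke (0.741). Those for Il33 were Gas6 (0.886), Apod (0.881) and Irs3 (0.866), and for Il1rl1 Pstpip1 (0.734), Tex2 (0.724) and Acer3 (0.717). Il1rl1 had at most 16 counts in any *A. cahirinus* library at 12 d, where its r with these was 0.516, 0.748 and 0.51. Il6ra had Plscr4 (0.858), Rbpms (0.856) and Vsir (0.84), and Il6st had Kat2b (0.823), Slc39a14 (0.789) and G0s2 (0.781). Within the family Il11 and Lif had the highest mean r of any pair, at 0.654, with 0.361 in *A. cahirinus*, 0.707 in wild mice and 0.893 in C56BL6 mice. Other pairs were lower or changed sign between populations. Il6 and Il33 had 0.903 in *A. cahirinus*, -0.563 in wild mice and 0.21 in C56BL6 mice.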

How the data were processed

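Counts were raw reads per gene, made by the authors with featureCounts 2.0.3 against GRCm39 with Ensembl 108 for mice and AcoCah2 for *A. cahirinus*, per the file headers. The headers name no option for strand, pairs or overlapping genes. HISAT2 and Trim Galore are named in the submitters' processing notes, with no version. Of the mouse identifiers 56236 were matched to a symbol. Exon lengths deposited by the authors are other values and served TPM only.

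The genes and gene lists were chosen with earlier results of these data known. Tests used edgeR 4.0.16 (R 4.3.3) with filterByExpr, TMM and Benjamini-Hochberg adjustment over all genes tested, on the compared groups only, and were tested on simulated data. Between species, 18109 symbols were used and changes within each population compared. CPM were computed on library totals. Each replicate number has 1 animal code in the library names. Libraries of 1 number deviated together (lowest single-pair correlation 0.358 to 0.873 over comparisons), so the numbers pair the samples. The mean correlation between other numbers was -0.294 to -0.123. Deviations within a group cancel out, which pushes these means down, so they are no separate support. Alternatives were DESeq2 1.42.0, its size factors, no filter, all groups in the fit, the replicate block and leaving out each replicate. From each list the up to 4 genes with the largest called change at 1 CPM or more on average are named per population, from the unmatched calls where there are any and otherwise from the matched ones. The matched differences between populations without each number were added after seeing the data.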

Additional observations from a re-analysis of the deposited data

Results flagged for a closer look

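In 177 sets of 4 libraries, one for each gene and group with counts, 17 had a library far from the other 3. For independent sets chance gives about 1 in 20. These sets share animals, so 1 animal's level can be flagged more than once, and the number of flags was not tested. Replicate 3 of the wild mice held 69.8 CPM of Il6 at 10 Gy and 67.3 CPM at 20 Gy at 12 d, against 21 to 24.8 and 20.7 to 22.4 CPM in the others. In *A. cahirinus* at 12 d and 10 Gy, replicate 2 held 8.23 CPM of Il11 (others 23.6 to 25.5) and replicate 3 held 56.4 CPM of Lif (others 61.5 to 62). Il1rn in wild mice at 24 h was 17.8, 3.61 and 2.48 CPM at 0, 10 and 20 Gy in replicate 4, against at most 0.214, 0.115 and 0.205 CPM in the others. Il33 was 26.4 CPM in replicate 2 of untreated *A. cahirinus* at 12 d (others 3.28 to 6.35), 0.199 CPM in replicate 3 of untreated wild mice at 12 d (others 6.74 to 7.48) and 0.352 CPM in replicate 1 of C56BL6 mice at 24 h and 20 Gy (others 0.0753 to 0.114). Il1rl1 in C56BL6 replicate 1 was 269, 213 and 197 CPM at 24 h and 289 CPM at 12 d untreated, against at most 53.8, 40.6, 29.9 and 72.2 CPM in the others. That animal's libraries also carried the Krt5 and Krt14 counts given above, whose part was not tested. Il6ra was 30.9 CPM in C56BL6 replicate 4 at 12 d and 20 Gy (others 24.4 to 25.4). In wild replicate 1 at 24 h and 10 Gy, Il6st was 195 CPM (others 416 to 452) and Il1b 0.287 CPM, which is 5 counts, against 0. This library was the shallowest of all, at 17.42 M counts. Without replicate 1 the matched calls at 10 Gy went from 0 to 3309 over all genes, so the library may stand apart beyond these genes, which was not tested.

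The change at 20 Gy differed between populations for several genes, as log2 differences. For *A. cahirinus* minus C56BL6 mice at 12 d they were 4.32 for Il33, 2.49 for Il6st and -1.53 for Lif unmatched, and 1.03 for Il6 and 1.16 for Il6ra matched. At 24 h they were 1.58 for Il6 and 0.43 for Il6st matched. For *A. cahirinus* minus wild mice at 12 d they were 1.85 for Il6st unmatched and 1.41 for Il6, 2.69 for Il33 and 1.21 for Il6ra matched. At 24 h they were 1.20 for Il6, 0.99 for Il6st and 2.58 for Il33 (adjusted p = 0.0037), all matched, with wild Il33 at 1.97 CPM or less. Of the *A. cahirinus* and wild differences, Il33 at 24 h did not pass without replicate 4 (adjusted p = 0.38) nor Il6 at 24 h without 3 (0.05), and at 12 d Il6 (0.11) and Il33 (0.091) did not pass without the libraries numbered 1. Wild minus C56BL6 mice at 24 h gave 1.36 for Il1rl1 matched (adjusted p = 0.031), lost without replicate 2 or 4 (adjusted p = 0.11 and 0.20).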

How the results depend on the processing

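Counts below are of the 10 genes called at 20 Gy against 0 Gy unless said otherwise, and no gene changed direction past the threshold under any alternative. DESeq2's size factors in edgeR moved no count by more than 1.5 times. Without the filter on low counts the count went from 1 to 0 in wild mice at 12 d for 10 Gy and for passage, and from 1 to 2 for passage in *A. cahirinus*. DESeq2 gave 5 in place of 3 for 20 Gy against passage in C56BL6 mice. In wild mice it gave 1 in place of 0 at 24 h for 20 Gy and for 10 Gy, 3 in place of 0 and of 1 at 12 d for 20 and 10 Gy, and 2 in place of 1 for passage and for 20 Gy against passage. In *A. cahirinus* it gave 1 in place of 0 at 24 h for both doses and 2 in place of 1 at 12 d for 10 Gy, and between untreated wild and C56BL6 cells at 24 h 1 in place of 0. With every group of 1 population at 1 time fitted together, wild mice at 12 d had 2 for 20 Gy (0), 10 Gy (1) and 20 Gy against passage (1), and *A. cahirinus* 5 for 20 Gy (3) and 2 for 10 Gy (1) and for passage (1).

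With the replicate block, C56BL6 mice had 5 and 6 called at 24 h for 20 and 10 Gy (0 without the block), 1 for 20 against 10 Gy (0) and 8 for 20 Gy against passage (3). With the block wild mice had 3 at 24 h for 20 Gy (0), and at 12 d 5 for 20 Gy (0), 5 for 10 Gy (1), 1 for 20 against 10 Gy (0), 4 for passage (1) and 5 for 20 Gy against passage (1). With the block *A. cahirinus* had 3 and 3 at 24 h (0), and at 12 d 6 for 20 Gy (3), 4 for 10 Gy (1), 4 for 20 against 10 Gy (0) and 4 for passage (1). Differences between populations with the block numbered 2 for *A. cahirinus* and C56BL6 mice (0), 3 for *A. cahirinus* and wild mice (0) and 1 between the mice (0) at 24 h, and 5 for *A. cahirinus* and wild mice at 12 d (1). The block moved the other 7 counts by no more than 1.5 times.

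Leaving out 1 replicate at a time, C56BL6 counts at 12 d ranged from 2 to 7 for 20 Gy and 1 to 7 for 10 Gy. They ranged from 2 to 5 for passage and 2 to 6 for 20 Gy against passage. Calls over all genes ranged in the same order from 1091 to 6087, 283 to 5366, 4400 to 8531 and 3898 to 7527. Each of these was highest without replicate 1. Wild counts ranged from 0 to 1 for 20 Gy and 10 Gy and 0 to 2 for passage, the highest without replicate 3. For 20 Gy against passage they were 0 in all 4 cases. Wild calls over all genes ranged in this order from 0 to 55, 0 to 52, 0 to 2118 and 0 to 1894, also highest without replicate 3. *A. cahirinus* counts ranged at 24 h from 0 to 2 for 20 Gy and 0 to 1 for 10 Gy. At 12 d they ranged from 0 to 5 for 20 Gy and 0 to 4 for 10 Gy. For passage they ranged from 1 to 2 and for 20 Gy against passage from 1 to 5. Over all genes the calls ranged in this order from 3 to 670 and 0 to 889 at 24 h. At 12 d these were 1626 to 6678, 0 to 1393, 786 to 5039 and 2677 to 8115. All were highest without replicate 2. Differences at 12 d ranged from 1 to 3 for *A. cahirinus* and C56BL6 mice and from 0 to 1 for *A. cahirinus* and wild mice. Over all genes these ranged from 610 to 2419 and 0 to 801. Those between untreated mice ranged from 0 to 1 at both times, and over all genes from 299 to 623 at 24 h and 115 to 374 at 12 d. The cause of these shifts was not tested. The count of all genes called moved by more than 1.5 times in 19 of 29 comparisons with DESeq2 and 1 of 29 with its size factors. It did so in 8 of 21 with all groups, 5 of 29 without the filter and 23 of 27 with the block. Without replicate 1, 2, 3 or 4 it did so in 16, 18, 18 and 19 of 29. Depth limits Il1a, Il1b, and Il1rn and Il1rl1 in *A. cahirinus*, which did not pass the filter on low counts at 12 d for 20 Gy against 0 Gy.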
